A study of Arabidopsis thaliana with 28 samples.

Results

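BAM8 overexpression lines with and without the suffix Cat were compared in shoots of Arabidopsis thaliana: 2 arrays labelled BAM8-Cat_Ox against 2 arrays labelled BAM8_Ox, 4 of the 28 arrays of the series. The arrays of each line were identified by label. Cat is taken here as a variant of the catalytic site, a reading that the labels do not spell out, and Ox as overexpression. The series covers BAM7 and BAM8, and each of its 14 groups holds 2 biological replicates: wild type (Col-0), the single mutants bam7 and bam8, the double mutant bam7 bam8, and BAM7 and BAM8 lines with no suffix or with the suffix DNA, Cat, Lig or N. All plants were untreated and 3 weeks old, grew at 20 °C and 70% humidity with 12 h of light, and were harvested 4 h after the light came on. Each array holds RNA from the pooled shoots of 14 plants. The sources used here give no promoter, no number of independent transformants, no genetic background of the Ox lines, no mutant alleles and no meaning for DNA, Lig and N, so a line may stand for 1 transformant. In whole shoots, fewer cells of a type and less RNA per cell cannot be told apart.

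Beta-amylases release maltose from the ends of starch chains, and several members of the family in plants act on starch in the plastid. BAM7 and BAM8 are unusual members: they sit in the nucleus and carry a plant-specific DNA-binding domain of the BZR1 type beside the beta-amylase domain. In that domain an acidic residue of the active site is needed for catalysis, whereas binding of a ligand in the active-site pocket does not itself require cleavage. Comparing the Cat variant with the intact protein asks whether the transcripts that follow BAM8 differ when the catalytic site is changed.

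Each array reports 22747 probe sets, and values are intensities on a linear scale. Genes are not attached to the probe sets in any file used here, so results carry probe set IDs, and the targeted gene and shoot markers could not be read as a check of the labels. Array medians ran from 23.5 to 25.8 intensity units and 25th percentiles from 6.78 to 8.37. Replicates differed by 2-fold or more at 59 probe sets in BAM8-Cat_Ox and 55 in BAM8_Ox, against 6 to 78 in 11 other groups and 254 in BAM7-Cat_Ox. Differences are on the log2 scale, BAM8-Cat_Ox minus the other group, where 1 is a 2-fold difference. Each was tested two-sided with limma against a spread pooled over all 14 groups, because 2 arrays against 2 cannot give an exact permutation p below 0.333. A probe set was called at a Benjamini-Hochberg adjusted p under 0.05 over 22746 probe sets.

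Few probe sets were called different between the Cat line and the intact line. Of 22746 probe sets, 24 were called (0.106%), 18 higher and 6 lower in BAM8-Cat_Ox, and 1530 had an unadjusted p under 0.05 (6.73%). The 18 higher probe sets rose by a median of 0.88, from 0.58 to 1.72. The 6 lower ones had a median difference of -0.69, from -4.64 to -0.55. A mean difference of 2-fold or more was found at 15 probe sets (0.0659%), of which 7 were called. When only these 4 arrays were fitted no probe set was called in limma, with 1270 at an unadjusted p under 0.05. With BAM8-Cat_Ox replicate 1 left out 240 were called, and with its replicate 2 left out, 19. With BAM8_Ox replicate 1 left out 88 were called, and here the balance turned to 24 higher and 64 lower. With its replicate 2 left out, 1 was called.

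The bulk of the transcripts lay close together in both lines. Over all probe sets the median difference was -0.01, and the 5th and 95th percentiles were -0.29 and 0.28. The 95% interval of the difference lay wholly within 2-fold for 22409 probe sets (98.5%), and for 337 it reached 2-fold or more in at least 1 direction. The interval lay wholly beyond 2-fold for 2. The interval typically extended 0.29 (median) to either side of the difference, so smaller differences could not be resolved at most probe sets. It is not adjusted for the number of probe sets, and a call took more. The called difference smallest in size was -0.55. The 2 arrays of one line did not overlap those of the other at 6952 probe sets (30.6%), 2758 higher and 4194 lower in BAM8-Cat_Ox. Values in random order, 2 and 2, would be separated at 33.3%, so this share alone shows no difference between the lines. All 24 called probe sets were among the 6952, which their choice makes likely.

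**Figure D1:**
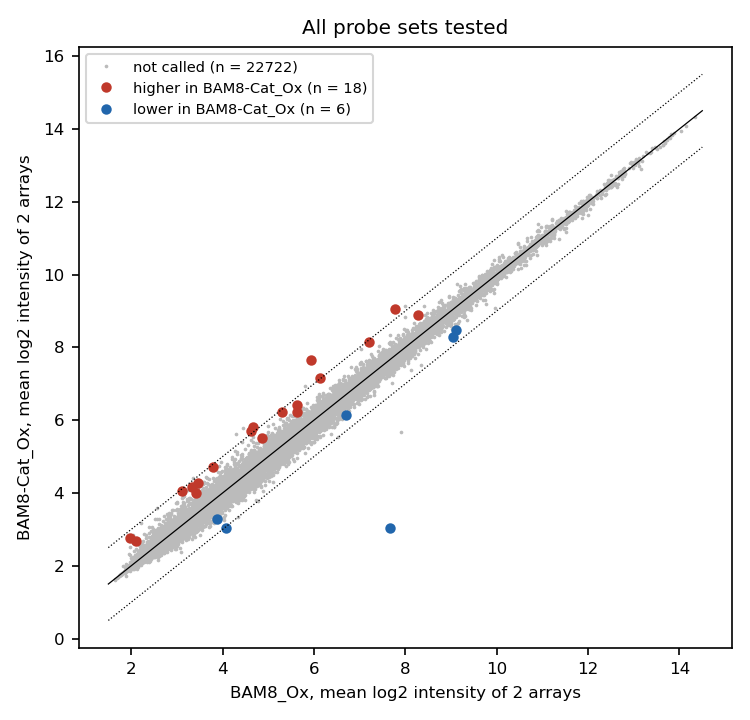
Mean log2 intensity of the 2 BAM8_Ox arrays (x axis) and the 2 BAM8-Cat_Ox arrays (y axis) for 22746 probe sets, with the 18 called higher and 6 called lower probe sets coloured and dotted lines at a 2-fold difference. The cloud lies along the diagonal, and 252606_AT stands farthest below it with a difference of -4.64.

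One probe set fell far more than any other. Probe set 252606_AT read 8.76 and 7.59 in BAM8-Cat_Ox, against 221.8 and 187 in BAM8_Ox. The other 26 arrays of the series, BAM8_Ox included, lay between 142.4 and 224.4. Both BAM8-Cat_Ox arrays were thus far below every other array, and the groups did not overlap. The difference was -4.64 (25-fold, SE 0.120, 95% interval -4.89 to -4.39, n = 2 arrays per line, limma adjusted p 3.47e-14). It is a lower bound, since the level of BAM8-Cat_Ox replicate 2 was under the 25th percentile of its own array and may be background. Against wild type the difference was -4.58, a bound too. Its call held in 14 of 15 alternative settings and was lost when only the 4 arrays were fitted (limma adjusted p 0.191).

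Probe set 251728_AT was called lower with a different pattern, in that the intact line was the one set apart. It read 13.81 and 20.44 in BAM8_Ox and 8.06 and 8.51 in BAM8-Cat_Ox. In the 24 arrays of the other groups the lowest, median and highest values were 8.03, 8.70 and 12.07. The BAM8_Ox arrays were above all others, and those of BAM8-Cat_Ox lay among the low values of the other groups. The difference was -1.02 (2.03-fold, SE 0.178, 95% interval -1.39 to -0.65, limma adjusted p 0.025). The BAM8-Cat_Ox values stood at percentiles 27.7 and 28.4 of their arrays, so the size of the difference rests on levels that may be near background. Over the 14 alternatives the difference ran from -1.30 to -0.44. Against wild type, BAM8_Ox was higher by 0.94 (limma adjusted p 0.0169), and BAM8-Cat_Ox differed by -0.08 (adjusted p 0.919). The call of BAM8_Ox against wild type was lost without wild type replicate 1 (adjusted p 0.0877) or 2 (0.0683), without BAM8_Ox replicate 2 (0.326) and with only the arrays of both groups fitted (0.569). The call against BAM8_Ox was lost in 5 of 14 alternatives, with only the 4 arrays fitted (adjusted p 0.827), with cyclic loess (0.0534), without the 4 arrays of lowest 25th percentile (0.0567), without BAM8-Cat_Ox replicate 2 (0.122) and without BAM8_Ox replicate 2 (0.273).

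Among the probe sets that rose, 264958_AT had the largest difference. It read 189.1 and 215.5 in BAM8-Cat_Ox and 68.75 and 54.26 in BAM8_Ox, and the other 24 arrays had a lowest value of 18.3, a median of 77.9 and a highest value of 181.9. The BAM8-Cat_Ox arrays were the 2 highest of the series, while BAM8_Ox lay within the range of the other groups. The difference was 1.72 (3.31-fold, SE 0.267, 95% interval 1.16 to 2.29, limma adjusted p 0.0137). Against wild type BAM8-Cat_Ox was higher by 1.44 (limma adjusted p 0.0142), and BAM8_Ox differed by -0.28 (adjusted p 0.904). From BAM7-DNA_Ox, which read 181.9 and 155.2, the Cat line differed by 0.26 and was not called (limma adjusted p 0.959). Nor was it called against bam7, bam7 bam8, BAM7-Cat_Ox or BAM7-Lig_Ox, but it was called higher than each other group. The call against wild type was lost without wild type replicate 2 (adjusted p 0.0773), without BAM8-Cat_Ox replicate 2 (0.148), with array weights (0.0568) and with only the arrays of both groups fitted (0.299). The call against BAM8_Ox was lost without BAM8-Cat_Ox replicate 2 (adjusted p 0.101), without BAM8_Ox replicate 2 (0.134) and with only the 4 arrays fitted (0.827).

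Probe set 251727_AT was called through both lines at once. Its values were 447.8 and 640.8 in BAM8-Cat_Ox and 228.1 and 212.3 in BAM8_Ox. The other 24 arrays had a lowest value of 263.9, a median of 325 and a highest value of 498.6. By group mean BAM8-Cat_Ox was the highest of the 14 groups and BAM8_Ox the lowest, although 1 BAM8-Cat_Ox array lay within the range of the others. The difference was 1.28 (2.43-fold, SE 0.156, 95% interval 0.96 to 1.61, limma adjusted p 0.00209). BAM8_Ox was below wild type by -1.10 (limma adjusted p 0.00114), and BAM8-Cat_Ox differed from it by 0.18 (adjusted p 0.773). The call of BAM8_Ox against wild type was lost with only the arrays of both groups fitted (adjusted p 0.241). The call between the lines was lost without BAM8_Ox replicate 2 (adjusted p 0.0518) and with only the 4 arrays fitted (0.827).

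**Figure D2:**
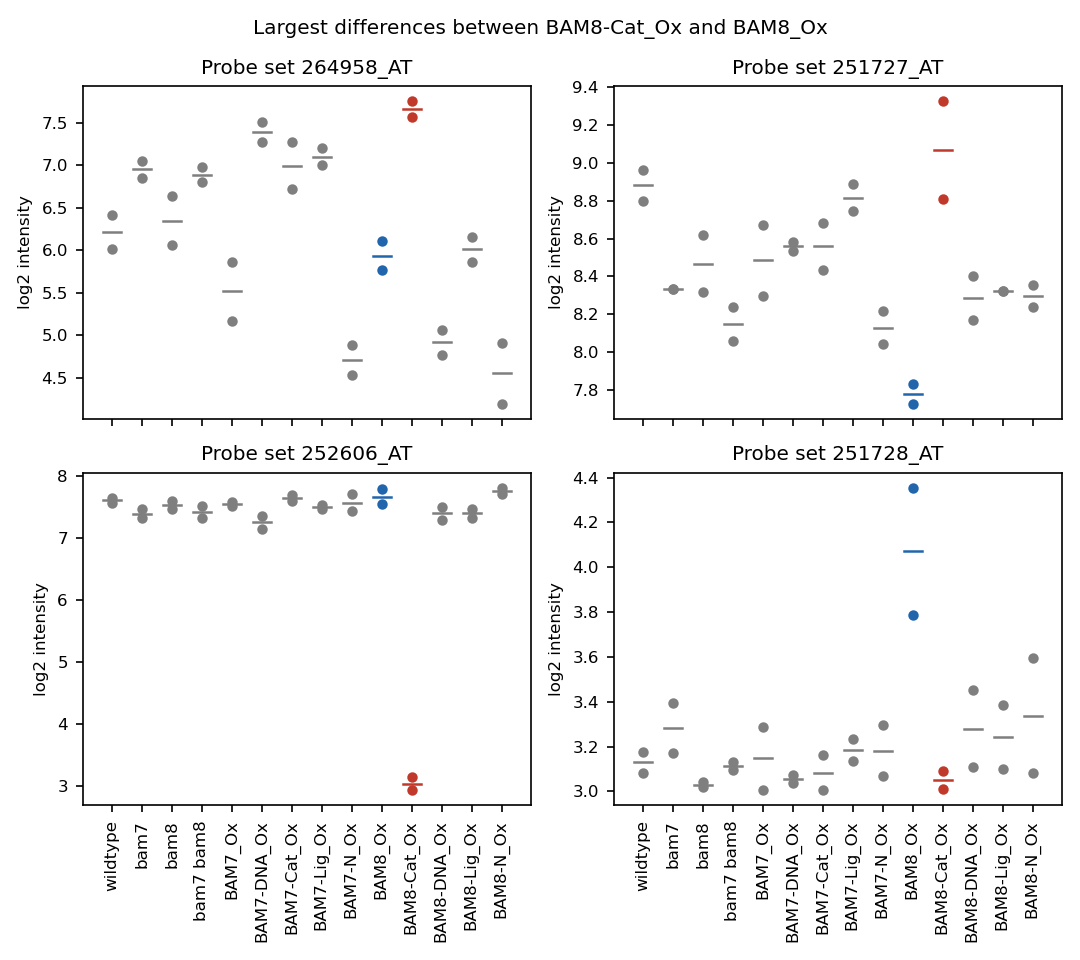
Log2 intensity of the 2 highest and 2 lowest called probe sets in all 28 arrays, with 1 point per array, a bar at each group mean of 2 arrays, BAM8_Ox in blue and BAM8-Cat_Ox in red. The Cat line stands apart for 252606_AT and the intact line for 251728_AT. For 264958_AT the Cat line is highest but close to BAM7-DNA_Ox, and for 251727_AT both lines lie at the ends of the group means.

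The 24 called probe sets fell into such patterns when each line's mean was set against the range of the 12 other group means. For 8 the Cat line alone lay outside that range, for 5 the intact line alone, for 9 both lines and for 2 neither. In 6 of the 9 the lines lay on opposite sides of the range, and in 3 on the same side. Among the 18 higher probe sets the counts were 7 with Cat alone outside, 2 with the intact line alone, 8 with both and 1 with neither. Among the 6 lower ones they were 1, 3, 1 and 1. Of all 9383 probe sets with a higher mean in BAM8-Cat_Ox, 12.6% had Cat alone outside, 10.7% the intact line alone and 4.65% both. For the 13361 with a lower mean these shares were 10.5%, 7.73% and 3.88%. The members were chosen for a difference between the lines, so these counts are a description. Wild type lay between the lines for 10 of the 18 higher and for all 6 lower probe sets, against 31.7% and 25.7% of all probe sets with that direction. Of the other 8 higher ones, wild type was below both lines for 7 and above both for 1. At least 1 array of the lower line was under its own 25th percentile for 3 of the 24, and for 1 of these all 4 arrays were. The 3 were 2 of the 18 higher and 1 of the 6 lower probe sets. Of all probe sets with that direction, 19.9% and 32.4% were so placed.

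The largest difference without a call was that of 263268_AT, singled out after its values were seen. It read 214.7 and 11.96 in BAM8-Cat_Ox and 375.8 and 154.6 in BAM8_Ox, and BAM8-Cat_Ox replicate 2 alone was low. Its difference was -2.25 (SE 0.841, 95% interval -4.02 to -0.48, limma adjusted p 0.557).

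The 3 probe sets that rose most against wild type in the Cat line or the intact line were high in both. Probe set 245171_AT read 75.01 and 75.16 in BAM8-Cat_Ox and 42.06 and 36.55 in BAM8_Ox, and between 4.35 and 6.87 in the other 24 arrays. Both lines were above every other array, and the Cat line was above the intact line. Against wild type it rose by 4.02 in BAM8-Cat_Ox (limma adjusted p 2.36e-13) and by 3.08 in BAM8_Ox (adjusted p 4.72e-11). Both rises are lower bounds, since the wild type arrays read this probe set below their own 25th percentiles. The difference between the lines, 0.94 (1.92-fold, SE 0.120, 95% interval 0.68 to 1.19, limma adjusted p 0.00309), was lost as a call without BAM8_Ox replicate 2 (adjusted p 0.0518) and with only the 4 arrays fitted (0.827).

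Probe set 264514_AT read 114.2 and 129.7 in BAM8-Cat_Ox, 59.28 and 53.4 in BAM8_Ox, and 74 and 83.65 in BAM8-N_Ox. The Cat arrays were above those of the intact line by 1.11 (SE 0.301, 95% interval 0.48 to 1.75), which was not called (limma adjusted p 0.281). It was called with an offset of 16 added to the values (adjusted p 0.0168) and when the 4 arrays of lowest 25th percentile were dropped (0.0314). Relative to wild type the level was higher by 3.93 in BAM8-Cat_Ox (limma adjusted p 4.6e-07) and by 2.82 in BAM8_Ox (5.67e-05, and 0.0633 with only the arrays of both groups fitted) and these are lower bounds too, since 1 wild type array read it below its own 25th percentile.

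Probe set 248997_AT was high in all BAM8 lines but BAM8-N_Ox. It read 725.4 and 405.3 in BAM8-Cat_Ox and 933.7 and 1067 in BAM8_Ox. Levels were 352.3 and 390.9 in BAM8-DNA_Ox, 294.3 and 268.2 in BAM8-Lig_Ox, 14.41 and 14.42 in BAM8-N_Ox and 41.49 and 40.11 in wild type. The Cat arrays lay below those of the intact line and above those of the DNA and Lig lines. The difference from BAM8_Ox was -0.88 (SE 0.206, 95% interval -1.31 to -0.45) and was not called (limma adjusted p 0.179), but it passed without BAM8-Cat_Ox replicate 1 (adjusted p 0.00241). Against wild type the level rose by 3.73 in BAM8-Cat_Ox (limma adjusted p 5.46e-09) and by 4.61 in BAM8_Ox (2.25e-10). The former call was lost with only the arrays of both groups fitted (adjusted p 0.151).

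The largest fall of the intact line against wild type, at 249780_AT, was shared by the Cat line. It read 4.98 and 5.85 in BAM8-Cat_Ox, 4.5 and 5.77 in BAM8_Ox and 54.91 and 44.09 in wild type. The mutant bam8 read 5.17 and 4.85, and the arrays of the DNA, Lig and N lines of BAM8 lay between 4.16 and 8.58. In bam7 bam8, however, it read 107.1 and 71.6, and bam7 and the BAM7 lines lay between 70.76 and 101.3. All BAM8 lines and bam8 were thus low, the other 8 groups were high, and the low and high arrays did not overlap. Against wild type it fell by 3.19 in BAM8-Cat_Ox (limma adjusted p 2.13e-07) and by 3.27 in BAM8_Ox (1.34e-07, and 0.0675 with only the arrays of both groups fitted), both lower bounds. The difference between the lines was 0.08 (95% interval -0.39 to 0.55, limma adjusted p 1). Both lines read this probe set under the 25th percentiles of their own arrays, so that difference may be one of background levels. Whether the BAM8 lines were made in the bam8 mutant is not given in the sources used here, and it was not tested.

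**Figure D3:**
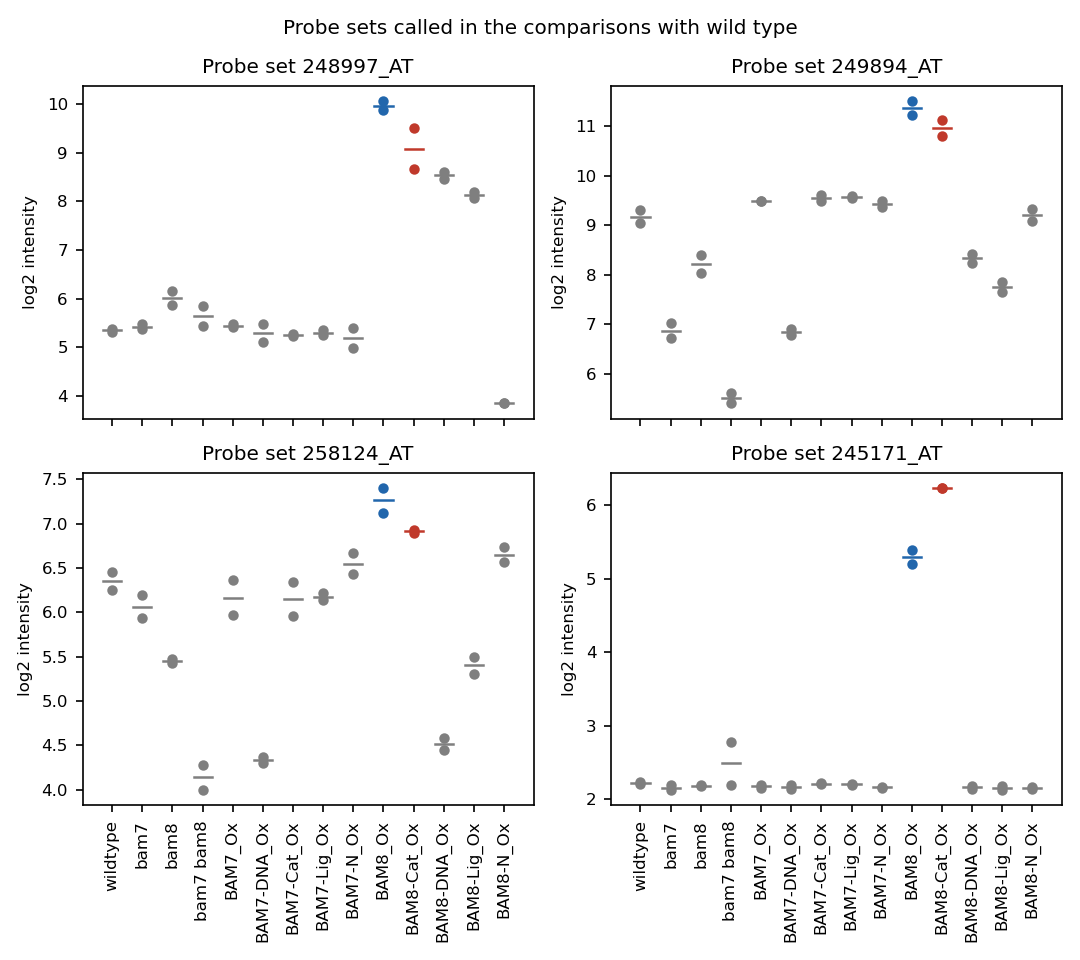
Log2 intensity of 4 probe sets called in comparisons with wild type, in all 28 arrays, with 1 point per array and a bar at each group mean of 2 arrays, BAM8_Ox in blue and BAM8-Cat_Ox in red. Both lines lie above wild type in each panel, and they are called different from each other for 245171_AT, with 0.94.

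Probe sets changed in the mutant of both genes form a list whose difference used no array of a BAM8 line, although the pooled spread behind the calls did. In the mutant bam7 bam8, 22 probe sets were lower than wild type (0.0967%) and 19 higher (0.0835%). With only the arrays of both groups fitted, 1 was called in all. Of the 22 that fell in the double mutant, 0 were called between BAM8-Cat_Ox and BAM8_Ox in limma, and 0.106% of all probe sets were called. At an unadjusted p under 0.05 there were 6 of the 22, beside 6.73% of all probe sets. Below 0 were 14 of the 22, beside 13361 of all 22746 probe sets. The median difference of the 22 was -0.07, from -0.40 to 0.16, beside -0.01 for all probe sets tested. The 95% interval lay within 2-fold for all 22. Of the 19 that rose in the double mutant, 0 were called between the lines, 3 had an unadjusted p under 0.05, and the median was -0.03 with a range from -0.34 to 1.03.

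Against the other variants up to 13 of these 22 probe sets were called higher in the Cat line. Compared with BAM8-DNA_Ox, 13 rose, none fell, and the median difference was 0.64, where 0.928% of all probe sets were called higher and their median was 0.03. Compared with BAM8-Lig_Ox, 10 rose, 20 had a value above 0 and the median was 0.43 (0.501% of all called higher, median 0.02). Compared with BAM8-N_Ox, 7 rose, 18 had a value above 0 and the median was 0.30 (1.17% of all called higher, median 0.03). The intact line gave 12, 10 and 7 higher calls against DNA, Lig and N, with medians of 0.78, 0.58 and 0.34. Over all probe sets 0.492%, 0.431% and 0.703% were called higher in these comparisons, with medians of 0.04, 0.03 and 0.04. The comparisons share arrays, and the differences between these counts were not tested. The list depended on the arrays that chose it. Taken without wild type replicate 1 it had 28 members, with a median of 0.11 and 9 calls against DNA, and 0.09 and 7 calls against Lig. Taken without wild type replicate 2 it had 141 members, with a median of 0.09 and 14 calls against DNA, and 0.10 and 11 higher calls and 1 lower call against Lig. Without bam7 bam8 replicate 1 or 2 it had 13 or 19 members, with medians of 0.78 and 0.71 against DNA. In these 4 lists the median difference between BAM8-Cat_Ox and BAM8_Ox ran from -0.08 to -0.02. With the list kept, single arrays moved the calls against Lig, to 5 without BAM8-Cat_Ox replicate 2, 6 without BAM8-Lig_Ox replicate 1 and 5 without BAM8-Lig_Ox replicate 2. With only the groups compared fitted, the calls were 4 against DNA and 3 against Lig, and with array weights they were 11 and 5. The 19 probe sets that rose in the double mutant gave fewer calls. In the Cat line 1 was higher and 2 were lower against DNA, 1 and 3 against Lig, and 1 and 4 against N. Their medians were -0.15, -0.20 and -0.17. Of all 22746 probe sets, 211 were called higher and 135 lower against DNA, 114 and 56 against Lig, and 266 and 349 against N.

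**Figure D4:**
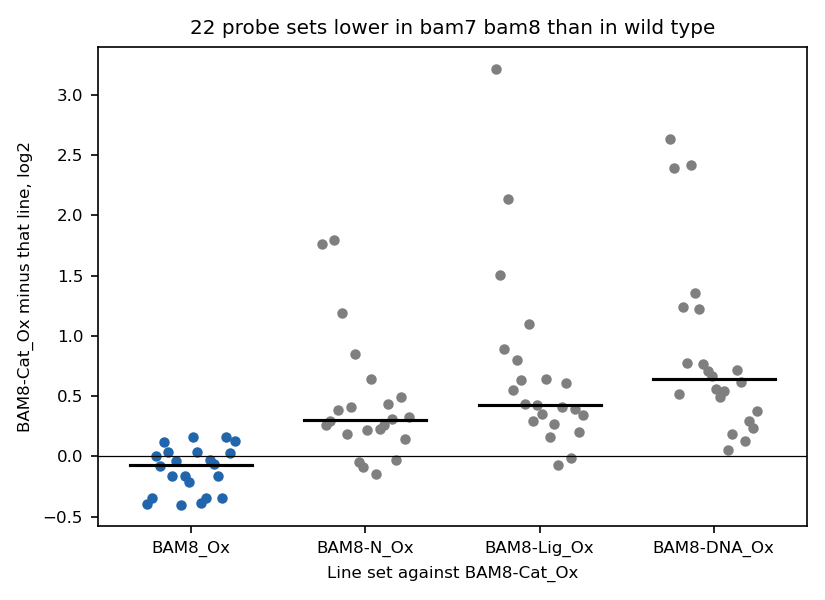
Log2 difference of each of the 22 probe sets lower in bam7 bam8, for BAM8-Cat_Ox against each other BAM8 line, with 1 point per probe set and a bar at the median. Values against BAM8_Ox lie between -0.40 and 0.16, and those against BAM8-DNA_Ox are all above 0 with a median of 0.64.

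Probe sets 249894_AT and 258124_AT are members of that list. The first read 1794 and 2237 in BAM8-Cat_Ox and 2907 and 2393 in BAM8_Ox. It read 303.4 and 342.3 in BAM8-DNA_Ox, 230.1 and 201.6 in BAM8-Lig_Ox, 542.6 and 643.4 in BAM8-N_Ox, 629.2 and 524.7 in wild type and 42.2 and 48.63 in bam7 bam8. Both lines were above all other groups, and the Cat arrays lay below those of the intact line. The difference between the lines was -0.40 (SE 0.152, 95% interval -0.72 to -0.08, limma adjusted p 0.582) and was not called. The Cat line was higher than DNA by 2.64, than Lig by 3.22 and than N by 1.76 (limma adjusted p 1.11e-08, 3.82e-10 and 1.97e-06). It also exceeded wild type, by 1.80 (limma adjusted p 1.66e-06), a call lost with only the arrays of both groups fitted (adjusted p 0.21).

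Probe set 258124_AT read 119.3 and 121.8 in BAM8-Cat_Ox and 169.1 and 139.2 in BAM8_Ox. Its values were 23.99 and 21.9 in BAM8-DNA_Ox, 45.28 and 39.64 in BAM8-Lig_Ox, 106.8 and 94.49 in BAM8-N_Ox, 76.38 and 87.72 in wild type and 15.95 and 19.49 in bam7 bam8. Of the BAM8 lines the DNA line was nearest to the double mutant, and the Cat line lay between the N line and the intact line. The difference between Cat and the intact line was -0.35 (SE 0.154, 95% interval -0.67 to -0.02, limma adjusted p 0.691), not called. The Cat line exceeded DNA by 2.39 (5.26-fold, limma adjusted p 4.33e-08) and Lig by 1.51 (adjusted p 2.57e-05), and the difference of 0.26 from N was not called (adjusted p 0.458). Against wild type BAM8_Ox was higher by 0.91 (limma adjusted p 0.00703), and the difference of 0.56 for BAM8-Cat_Ox was not called (adjusted p 0.145). The former call was lost without wild type replicate 1 (adjusted p 0.108), without BAM8_Ox replicate 1 (0.0716) and with only the arrays of both groups fitted (0.446).

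The same comparison was made with all 13 other groups. The count was lowest against BAM8_Ox, with the 24 calls given above. BAM8-Cat_Ox differed at 115 probe sets from BAM7-Lig_Ox (0.506%), at 135 from wild type (0.594%), at 170 from BAM8-Lig_Ox (0.747%) and at 215 from bam8 (0.945%). Counts between 232 and 305 came from bam7 (1.02%), BAM7_Ox (1.27%) and BAM7-DNA_Ox (1.34%). Higher counts were those of BAM7-Cat_Ox with 344 (1.51%), BAM8-DNA_Ox with 346 (1.52%), bam7 bam8 with 367 (1.61%), BAM8-N_Ox with 615 (2.7%) and BAM7-N_Ox with 742 (3.26%). BAM8_Ox gave the lowest count in the settings used and in all 15 alternatives, with the smallest gap, 0 against 2, where each fit held only the groups compared. Alternatives that left out a BAM8_Ox array weakened that comparison alone, so its lowest count there cannot be read as nearness. The comparisons share the BAM8-Cat_Ox arrays, and the differences between counts were not tested. The order of the other groups was not stable. With array weights the count against BAM7-Cat_Ox was 47, the lowest after BAM8_Ox, and it was 112 without BAM8-Cat_Ox replicate 2. Against BAM7-Lig_Ox it was 49 without that array and 455 without replicate 1. Fits of only the groups compared gave between 2 and 44 calls against the 12 groups other than BAM8_Ox. Single arrays moved further counts: with wild type as the other group, the count was 65 or 298 when wild type replicate 1 or 2 was dropped, and 383 or 73 when BAM8-Cat_Ox replicate 1 or 2 was dropped. Against BAM8-DNA_Ox it was 869 or 147 in the same order, and 220 or 132 when DNA replicate 1 or 2 was dropped. Against BAM8-Lig_Ox it was 681 or 93, and 83 when Lig replicate 2 was dropped.

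**Figure D5:**
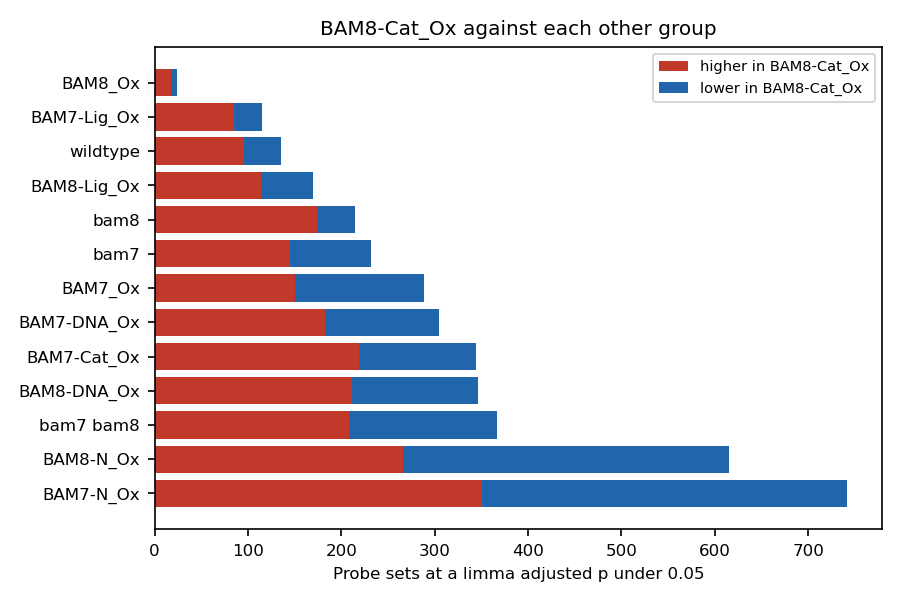
Number of probe sets called in limma between BAM8-Cat_Ox and each of the 13 other groups (x axis), split into higher (red) and lower (blue) in BAM8-Cat_Ox. The bar for BAM8_Ox is the shortest, with 24, and that for BAM7-N_Ox the longest, with 742.

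The suffix Cat is also carried by a BAM7 line, which allows the same step to be read in the other protein with no array in common. BAM7-Cat_Ox differed from BAM7_Ox at 364 probe sets (1.6%), in a comparison where the replicates of BAM7-Cat_Ox lay farthest apart. Of the 24 probe sets called in BAM8, 19 had the same sign in BAM7, beside 48.1% of all probe sets, and 2 were called there. The 48.1% is not matched for direction. Of the 24, 18 rose in BAM8, and 13641 of all 22746 probe sets were above 0 in BAM7, against 9383 in BAM8. Whether the 19 exceed what direction alone gives was not tested. The differences of the 24 in BAM7 ran from -0.40 to 1.48. The 18 that rose in BAM8 had a median of 0.13 in BAM7 and the 6 that fell had -0.02, beside 0.07 for all probe sets. One of the 2 was 264958_AT, which read 105.2 and 154.3 in BAM7-Cat_Ox and 35.84 and 58.19 in BAM7_Ox. These groups did not overlap, and the rise was 1.48 (SE 0.267, limma adjusted p 0.0107). Its difference between the proteins was 0.24 (95% interval -0.55 to 1.04, limma adjusted p 0.771). The other was 255526_AT, named after its values were seen, with -0.55 in BAM8 and -0.40 in BAM7 (limma adjusted p 0.0364).

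Tested directly, the Cat difference of BAM8 departed from that of BAM7 at 1 probe set (0.0044%), with 2841 at an unadjusted p under 0.05. That probe set was 252606_AT, which read 194.8 and 207.2 in BAM7-Cat_Ox and 183.7 and 191.8 in BAM7_Ox. The BAM7 lines overlapped the other groups, with a difference of 0.10 (limma adjusted p 0.617). The difference between the proteins was -4.74 (SE 0.169, limma adjusted p 1e-11), and the call held in all 18 alternatives. It is a lower bound in size, as it rests on the BAM8-Cat_Ox level that may be background. For 251727_AT and 251728_AT, the differences between the proteins were 1.21 (limma adjusted p 0.0791) and -0.96 (adjusted p 0.219), and neither was called. The count of 1 was 807 without BAM7-Cat_Ox replicate 1 and 77 without BAM8_Ox replicate 1. It was 12 without BAM7-Cat_Ox replicate 2, 6 without BAM8-Cat_Ox replicate 1, 5 without BAM7_Ox replicate 2 and 4 without BAM8-Cat_Ox replicate 2.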

How the data were processed

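Biotin-labelled cRNA was made from 1 µg of total RNA, per the labels' protocols. RMA is the tool that the submitters' processing notes name, with no version. The deposited table holds linear intensity values from 2.89 to 22277, whose range is the only basis for taking them as the antilog of RMA output. Genotype labels put the 28 arrays into groups. Their number limits the precision.

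Values were put on the log2 scale, 1 control probe set was left out, and no filter on low values was used. One mean per group was fitted with limma 3.58.1 in R 4.3.3 (14 residual and 17.7 total degrees of freedom), with Benjamini-Hochberg adjustment within each comparison. The median SE of the main difference was 0.139. The fit was run on simulated data with independent normal noise drawn from its own spread. Such data cannot check whether its assumptions hold for these arrays. Plots used matplotlib 3.10.9 (Python 3.11.15). The groups, lists and tests were chosen with earlier results of these data known.

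Without a table that gives the gene of a probe set, at most 2 called probe sets per direction and comparison are named, by size of change, plus 2 said to be singled out, and the naming rule could be applied only in part. In BAM8-Cat_Ox against BAM8_Ox the 2 largest per direction are named, in BAM8-Cat_Ox against wild type the 2 that rose most, in BAM8_Ox against wild type the 1 that rose and the 1 that fell most, and in the double mutant the 2 that fell most. For the same reason 18 gene lists and the marker check were not run, although all 264 listed genes are in RefSeq's gene table. Alternatives were a fit limited to the arrays compared, a fit without BAM7-Cat_Ox, and dropping the dimmest probe sets (15164 of 22746 kept). Others were a robust variance trend, the replicate block, cyclic loess, quantile normalization, array weights, dropping _s_at and _x_at probe sets, and an offset of 16. The last were leaving out the 4 arrays of lowest 25th percentile, and leaving out in turn each array of the groups compared. Added after the data were seen were the list of the double mutant taken again without each array that chose it, and the counts against each group in every setting. The plan fixed 7 comparisons. Added to these were BAM7-Cat_Ox against BAM7_Ox, BAM8-Cat_Ox against BAM8-N_Ox and the remaining groups, and BAM8_Ox against the DNA, Lig and N lines.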

Additional observations from a re-analysis of the deposited data

Results flagged for a closer look

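Probe set 252606_AT was singled out because its Cat difference was not the same in both proteins, by a test of that difference. BAM8-Cat_Ox lay below BAM8_Ox by -4.64, BAM7-Cat_Ox differed from BAM7_Ox by 0.10, and the difference between them was -4.74 on the log2 scale (SE 0.169, limma adjusted p 1e-11, n = 2 arrays in each of the 4 groups). It is a lower bound in size, since the level in BAM8-Cat_Ox replicate 2 was under the 25th percentile of its array.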

How the results depend on the processing

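With 2 arrays per group, counts rested on the pooled spread and on single arrays. The median distance from a difference to the end of its unadjusted 95% interval was 0.29 (log2). Differences well under this could not be resolved, and a call took more. Between BAM8-Cat_Ox and BAM8_Ox the called difference smallest in size was -0.55. When only the groups compared were fitted, limma called 0 probe sets between BAM8-Cat_Ox and BAM8_Ox (1270 at an unadjusted p under 0.05), 6 between BAM8-Cat_Ox and wild type, 4 between BAM8_Ox and wild type, 24 against BAM8-DNA_Ox, 11 against BAM8-Lig_Ox and 1 between bam7 bam8 and wild type. Quantile normalization gave 40 calls against BAM8_Ox. Array weights gave 71 against wild type, 216 against BAM8-DNA_Ox and 104 against BAM8-Lig_Ox, and leaving out the 4 arrays of lowest 25th percentile gave 129 against BAM8-DNA_Ox. The count of 1 for the difference between the proteins became 2 without the dimmest probe sets, 6 with a variance trend, 14 with cyclic loess, 17 with quantile normalization and 11 with the offset. Leaving out 1 array at a time gave 1 to 240 calls against BAM8_Ox, 65 to 383 for BAM8-Cat_Ox and 58 to 247 for BAM8_Ox against wild type, 132 to 869 against BAM8-DNA_Ox, 83 to 681 against BAM8-Lig_Ox, 16 to 253 between bam7 bam8 and wild type, and 1 to 807 for the difference between the proteins. Apart from fewer arrays or probe sets in a fit, the cause of these shifts was not tested. The uncalled difference of 249780_AT between the lines ran from -0.10 to 0.26 when 1 array was left out, and turned sign without BAM8-Cat_Ox replicate 2 (-0.03) and without BAM8_Ox replicate 1 (-0.10). All called probe sets that were tested kept their sign in all 15 alternatives, which separated arrays make likely. Of the 24, 24 were still called with quantile normalization, 23 with cyclic loess, 20 with array weights, 11 without the 4 arrays of lowest 25th percentile, 21 and 7 without BAM8-Cat_Ox replicate 1 and 2, and 15 and 1 without BAM8_Ox replicate 1 and 2. The replicate block left 20 calls against BAM8_Ox, all among the 24, and gave 2 for the difference between the proteins, and it moved no other count by more than 1.5 times. Same-numbered deviations of BAM8-Cat_Ox and BAM8_Ox correlated across probe sets with r 0.18. Over all 91 pairs of groups r ran from -0.38 to 0.43, with 24 over 0.1. The labels do not say whether arrays of equal replicate number were handled together, and this was not tested.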
